A study of Canis lupus familiaris with 7 samples.

Results

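The genes of the mitochondrial respiratory chain were examined in 7 primary canine osteosarcomas, a malignant bone tumour of dogs that resembles the human disease. Probes were taken by the gene symbol that the array files give them: symbols that start with NDUF, UQCR or ATP5, or with COX followed by a digit from 4 to 8, and the symbols SDHA, SDHB, SDHC, SDHD, CYC1 and CYCS. This gave 76 of the 43603 probes on the array, for 48 genes, and 72 of these probes, for all 48 genes, passed a filter of being well above background on 3 or more arrays. The remaining 4 probes belong to ATP5C1, ATP5G3, NDUFB9 and NDUFS4, each of which kept another probe. Of the genes, 28 code for subunits of complex I, 2 for complex II (SDHA, SDHC), 2 for complex III (UQCRC1, UQCRC2), 1 for complex IV (NDUFA4), 7 for complex V, and 1 is cytochrome c (CYCS).

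Not every matching symbol belongs to the chain. Another 7 genes carry a matching symbol and are no subunit of a complex. NDUFAF1, NDUFAF2, NDUFAF3, NDUFAF4 and ATP5SL (also called DMAC2) code for assembly factors of complex I, NDUFA4L2 is a paralogue of NDUFA4, and COX4NB (also called EMC8) is a neighbour of the COX4I1 gene whose product belongs to a complex of the endoplasmic reticulum. NDUFA4 was named as a complex I subunit and is now placed in complex IV. No subunit with a COX symbol was listed under that symbol. Through gene identifiers in a RefSeq table (assembly UU_Cfam_GSD_1.0), a further 40 probes for 20 respiratory chain genes were found under locus numbers, and 39 of them were above background on 3 or more arrays. These genes and 12 genes encoded by mitochondrial DNA are described after the main set and are in none of its counts.

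The deleted group held 4 tumours labelled as DLG2 deleted and the wild-type group 3 tumours labelled as DLG2 wild type, with 1 array and 1 dog for each. DLG2 codes for a membrane-associated scaffold protein, and the question put to these arrays was which expression differences go with its loss. Deleted tumours 1 to 4 came from a German Shepherd and Collie cross aged 8 years (sex label MC), a Rottweiler cross aged 9 years (FS), a Greyhound aged 6 years (MC) and a Great Pyrenees aged 7 years (FS). Wild-type tumours 1 to 3 came from a Boxer aged 12 years (FS), a Labrador Retriever cross aged 10 years (FS) and a Bull Mastiff aged 8 years (MC). The labels give no other alteration, so what the tumours of a group share beyond DLG2 is not known, and breed, age and DLG2 status cannot be told apart in 7 dogs. These are pieces of bulk tumour, in which fewer cells of a type and less RNA per cell cannot be told apart.

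The respiratory chain moves electrons from NADH and succinate to oxygen and makes ATP from the energy released. Complex I takes electrons from NADH, complex II takes them from succinate, complex III passes them to cytochrome c, complex IV passes them to oxygen, and complex V makes ATP. Most subunits are encoded in the nucleus, and a few in mitochondrial DNA. Many tumours keep respiring while they also ferment glucose, and bone-forming cells are known to shift between both ways of making ATP.

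Every level is a log2 intensity of a 60-base probe. The probes behind the complex I results are printed here, 5′ to 3′ as the files give them, since a signal belongs to this stretch and not to the whole transcript. Positions are those of the files, on build canFam2, and a probe whose ends the files list in descending order is called minus strand. For NDUFB8 the capitals mark the bases that its pair of probes share. The first lies at chr28:16245253-16245312 and the second at chr28:16245256-16245315, both minus strand, so they measure nearly the same stretch with separate spots. For NDUFA12, the gene whose pair of probes disagreed in direction, the capitals mark an overlap of 9 bases. Its first probe lies at chr15:37982809-37982868 and its second at chr15:37982860-37982919, both minus strand. The other probes have no capitals. NDUFA9 lies at chr27:43224855-43224914 (minus), NDUFA8 at chr9:63759665-63759724 (plus), NDUFA6 at chr10:26356190-26356249 (plus), NDUFV2 at chr7:78227679-78227738 (plus), NDUFA2 at chr2:38653227-38653286 (minus) and NDUFC2, the member on the chromosome of DLG2, at chr21:23761594-23761653 (plus). Whether a probe lies in coding sequence or in an untranslated region was not analysed here.
NDUFB8 first: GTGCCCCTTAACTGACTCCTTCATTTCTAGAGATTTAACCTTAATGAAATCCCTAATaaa
NDUFB8 second: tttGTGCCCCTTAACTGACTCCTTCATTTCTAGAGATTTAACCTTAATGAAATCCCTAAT
NDUFA12 first: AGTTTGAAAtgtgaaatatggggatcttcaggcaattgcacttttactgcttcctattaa
NDUFA12 second: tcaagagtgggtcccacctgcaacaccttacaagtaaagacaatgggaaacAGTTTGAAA
NDUFA9: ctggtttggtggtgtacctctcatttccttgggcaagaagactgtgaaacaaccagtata
NDUFA8: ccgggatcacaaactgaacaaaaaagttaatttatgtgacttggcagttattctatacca
NDUFA6: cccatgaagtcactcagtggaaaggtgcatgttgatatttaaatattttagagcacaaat
NDUFV2: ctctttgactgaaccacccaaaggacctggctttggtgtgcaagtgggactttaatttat
NDUFA2: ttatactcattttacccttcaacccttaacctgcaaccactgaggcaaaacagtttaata
NDUFC2: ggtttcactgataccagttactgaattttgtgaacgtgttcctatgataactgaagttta

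The arrays were compared first. Each array had 30280 to 34538 probes well above background, and no spot was saturated. Over the 32309 kept probes the closest pair was wild-type tumours 1 and 2 (Pearson r = 0.987, against 0.936 to 0.966 in the other 20 pairs), which are labelled as separate dogs. Deleted tumour 4 stood apart in adipocyte markers and wild-type tumour 3 in osteoclast markers, as given with the tissue markers. Deleted tumours 2 and 3 and wild-type tumour 2 shared a slide and the other arrays were alone on theirs. The headers name no extraction session. The 2 sessions used here split the files by whether their extraction hour was before noon. The DLG2 probe (chr21:18338004-18338063) had log2 intensities of 10.37 to 11.44 in the deleted group and of 10.91 to 12.03 in the wild-type group. The groups overlapped, with a difference of -0.77 (SE 0.35, limma adjusted p = 0.710), and since the labels do not give the deleted stretch of each tumour, the probe does not check them.

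No respiratory chain probe passed the test of deleted against wild-type tumours (limma, with thresholds of 0.05 for the unadjusted and 0.1 for the Benjamini-Hochberg adjusted p). The call rate was 0 of 72 here and 0% over all 32309 probes, and the smallest adjusted p of a member was 0.479. At an unadjusted p below 0.05, 7 of the 72 probes were found, 6 with a lower and 1 with a higher mean in deleted tumours. Over all probes 7.27% passed that threshold (4.18% lower and 3.1% higher). In 7 of 72 probes every deleted tumour lay below every wild-type tumour, and in 0 probes every deleted tumour lay above, while over all probes 4.22% were separate in the lower direction and 3.89% in the higher. In either direction, both counts come to 9.72% of the member probes, against backgrounds of 7.27% at the unadjusted threshold and 8.12% with separate groups. The methods' t-test on the same values also called 0 member probes and found 7 at an unadjusted p below 0.05.

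The direction was less even than the calls. With the brightest kept probe taken for each gene, 36 of 48 genes (75%) had a lower mean in deleted tumours and 12 a higher one. Over the 72 probes the split was 54 lower and 18 higher. It was 42 and 30 with slide as a block, 46 and 26 with array weights, 45 and 27 without wild-type tumour 3, and 64 and 8 with normexp and 75th percentile scaling. The median difference of deleted minus wild-type tumours was -0.15 on the log2 scale, against 0.01 over the 13160 genes with a symbol, of which 47.2% were lower. Among the 40 genes that code for subunits of complexes I to V, 32 were lower, with a median of -0.21. Genes of 1 pathway do not vary independently, and these are counts with no test. The plot of gene differences by complex shows how many of the single differences are no larger than their SE.

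**Figure D1:**
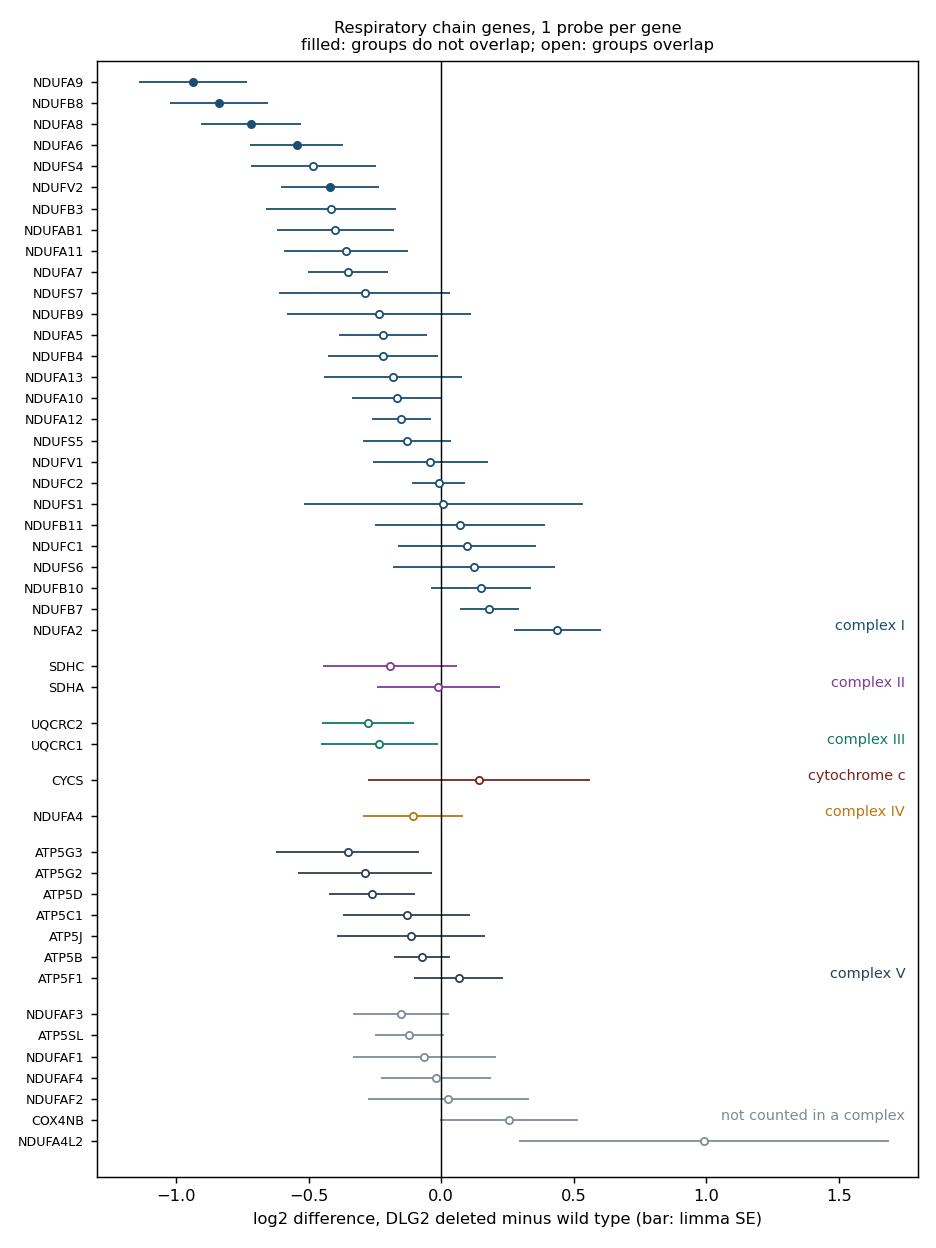
Difference of deleted minus wild-type tumours for 47 of the 48 genes, 1 probe per gene, on the log2 scale (horizontal axis; bars are limma's SE, 4 against 3 tumours), grouped by complex. Filled points mark the 5 genes whose groups do not overlap, all in complex I and all lower in deleted tumours; NDUFA4L2 has the highest difference (0.99) and the widest bar (SE 0.70).

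Complex I held all of the member genes whose groups did not overlap. Of its 28 genes, 21 had a lower and 7 a higher mean in deleted tumours, and the median difference was -0.22, with a range from -0.94 to 0.44. An unadjusted p below 0.05 was found for 5 genes, 4 lower and 1 higher, and for 5 genes every deleted tumour lay below every wild-type tumour. Each of these counts is 17.9% of the complex I genes. Over all genes with a symbol 7.37% passed the unadjusted threshold and 3.62% were separate and lower. As the median over the 28 genes of the deviation from each gene's mean, the complex stood at -0.04, -0.16, -0.17 and 0.03 over the deleted tumours in order, while the wild-type tumours had 0.23, 0.06 and 0.14. The groups did not overlap in this median, though deleted tumour 4 lay close to wild-type tumour 2.

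The lower values were unevenly spread over the complex. The NDUFA genes, accessory subunits that surround the catalytic core, were lower in 10 of 11 cases, with a median of -0.35. The NDUFB genes, accessory subunits of the membrane arm, were lower in 4 of 7 cases (median -0.22), and the NDUFS genes, which mix core and accessory subunits, in 4 of 6 (median -0.20). The 5 core subunits among the members, which carry the flavin and the iron-sulphur clusters or bind ubiquinone, had a median of -0.27, and the 23 accessory subunits of -0.22. Whether these groups differ from each other was not tested.

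NDUFA9, an accessory subunit that sits near the ubiquinone site, had the lowest difference of the set. In the order of the tumour numbers, its log2 intensity was 9.15, 8.92, 9.75 and 9.07 in the deleted group, and the wild-type group had 10.30, 10.04 and 10.14. The groups did not overlap, and deleted tumour 3 was nearest to the wild-type tumours. The means were 9.22 ± 0.36 (SD, n = 4) and 10.16 ± 0.13 (SD, n = 3), and the difference was -0.94 (SE 0.20, limma adjusted p = 0.479). An exact two-sided permutation test gave p = 0.0571, which is also the lowest value that its 35 splits can reach.

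NDUFB8, an accessory subunit of the membrane arm whose protein is often used as a marker of assembled complex I, was next. It read 13.19, 13.51, 13.47 and 13.34 in the deleted tumours and 14.54, 14.30 and 13.81 in the wild-type tumours. The deleted tumours lay close together and the wild-type tumours were spread, with wild-type tumour 3 nearest to the deleted group. Deleted minus wild type came to -0.84 (SE 0.18, limma adjusted p = 0.479). The overlapping second probe gave -0.72 (SE 0.20) with the same separation.

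NDUFA8, an accessory subunit that faces the intermembrane space, read 11.63, 11.34, 11.86 and 12.07 in the deleted tumours and 12.58, 12.26 and 12.48 in the wild-type tumours. Its groups were also separate, with deleted tumour 4 and wild-type tumour 2 nearest to each other, and the difference was -0.72 (SE 0.19, limma adjusted p = 0.505). NDUFA6, an accessory subunit that binds the mitochondrial acyl carrier protein, read 12.80, 12.65, 12.72 and 12.26 in the deleted tumours and 13.34, 13.25 and 12.87 in the wild-type tumours. Its groups were separate by a small gap between deleted tumour 1 and wild-type tumour 3, and the difference was -0.54 (SE 0.18, limma adjusted p = 0.587).

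These 4 genes were also compared within batches, for the size of the difference. Every deleted tumour lay below every wild-type tumour, so the negative sign was fixed in advance for any subset of tumours. On the slide that held both groups, deleted tumours 2 and 3 minus wild-type tumour 2 gave -0.71 for NDUFA9, -0.81 for NDUFB8, -0.66 for NDUFA8 and -0.57 for NDUFA6. Extraction session 1 held the tumours of this slide and deleted tumour 4, so it was no separate comparison. With 3 deleted tumours and the same wild-type tumour, its values were -0.79, -0.86, -0.51 and -0.71 in the same order. In session 2, with 1 deleted and 2 wild-type tumours, they were -1.07, -0.98, -0.90 and -0.30. With each tumour left out in turn, the 4 differences stayed between -1.11 and -0.43, and none passed the test in any of the alternatives run.

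**Figure D2:**
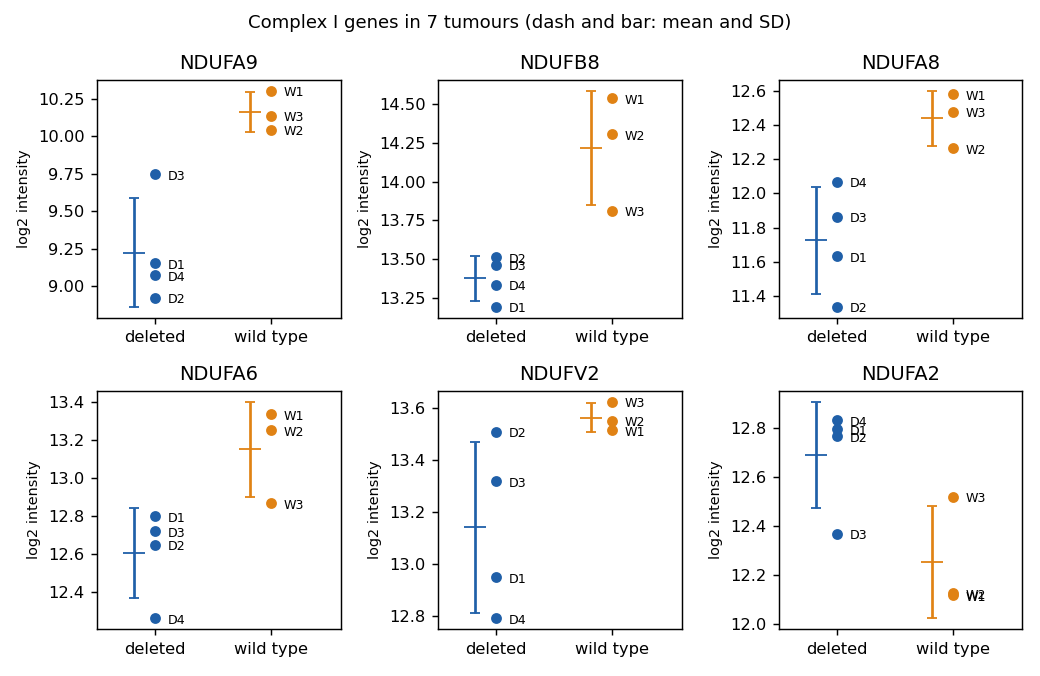
Log2 intensity of 6 complex I genes in each tumour (vertical axes, which do not start at 0 and differ between panels). Points are tumours, D1 to D4 deleted and W1 to W3 wild type, and the dash with its bar is the group mean with the SD (n = 4 and n = 3); NDUFA9, NDUFB8, NDUFA8, NDUFA6 and NDUFV2 are separate and lower in deleted tumours, and NDUFA2 is higher in deleted tumours 1, 2 and 4 than in every wild-type tumour.

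A few other complex I genes were singled out after their values were seen. NDUFV2, a core subunit with an iron-sulphur cluster, read 12.95, 13.51, 13.32 and 12.79 in the deleted tumours and 13.51, 13.55 and 13.62 in the wild-type tumours, so its groups were separate with almost no gap between deleted tumour 2 and wild-type tumour 1. The difference was -0.42 (SE 0.18, limma adjusted p = 0.698). NDUFA2, an accessory subunit with a thioredoxin-like fold, was the only member at an unadjusted p below 0.05 with a higher mean in deleted tumours. It read 12.80, 12.77, 12.37 and 12.83 there and 12.12, 12.12 and 12.52 in the wild-type tumours, with deleted tumour 3 below wild-type tumour 3, and a difference of 0.44 (SE 0.16, limma adjusted p = 0.653). NDUFA11, an accessory membrane-arm subunit, had 3 kept probes, of which the one farthest from the others along the gene was separate and lower (-0.59, SE 0.16) while the other two overlapped (-0.36 and -0.33).

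NDUFC2, a membrane-arm subunit, is the only member that the files place on chromosome 21, the chromosome of DLG2. It read 12.15, 12.20, 12.22 and 12.12 in deleted tumours and 12.17, 12.04 and 12.34 in wild-type tumours. The groups overlapped fully, with a difference of -0.01 (SE 0.10, limma adjusted p = 0.992). NDUFS1, the largest core subunit, showed a wide spread that came from a single tumour. Deleted tumour 1 read 8.39 while the other 6 ran from 9.72 to 10.63, and its difference was 0.01 (SE 0.53).

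Complex II, the link between the citric acid cycle and the chain, showed no difference beyond its spread. SDHC, which anchors the complex in the membrane, read 10.88, 10.90, 11.60 and 10.61 in the deleted tumours and 11.39, 10.88 and 11.31 in the wild-type tumours. The highest and the lowest value were both in deleted tumours, and the difference was -0.20 (SE 0.25, limma adjusted p = 0.922). SDHA, the flavoprotein that oxidises succinate, read 10.24, 11.15, 10.35 and 10.33 in the deleted tumours and 10.46, 10.49 and 10.64 in the wild-type tumours. Deleted tumour 2 stood above the other tumours, and the difference was -0.01 (SE 0.23, limma adjusted p = 0.996), with 0.09 by its second probe. The complex II median was -0.10, and on the shared slide it was 0.31.

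Some members are neighbours in the genome, and their values need not be separate observations of the chain. SDHA and NDUFS6 lie 951 kb apart on chromosome 34, and both were highest in deleted tumour 2 (NDUFS6 13.95, against 12.54 to 13.20 elsewhere). Chromosome 20 holds 8 members, of which 7 had a lower mean in deleted tumours, with a median of -0.25. The copy number of these regions was not analysed here.

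Complex III was represented by its large matrix-side pair. UQCRC2 read 8.17, 8.64, 8.09 and 8.62 in the deleted tumours and 8.74, 8.50 and 8.72 in the wild-type tumours. Deleted tumours 1 and 3 were low and the others overlapped, and the difference was -0.28 (SE 0.17, limma adjusted p = 0.814). UQCRC1 read 12.95, 13.56, 13.85 and 13.68 in the deleted tumours and 13.77, 13.88 and 13.59 in the wild-type tumours. Only deleted tumour 1 lay clearly below the rest, and the difference was -0.23 (SE 0.22, limma adjusted p = 0.900), or -0.05 without that tumour. The complex III median of -0.26 became -0.13 without deleted tumour 1.

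Cytochrome c (CYCS), the soluble carrier between complexes III and IV, read 12.12, 13.82, 12.15 and 12.85 in the deleted tumours and 12.56, 12.44 and 12.78 in the wild-type tumours. Deleted tumour 2 stood far above every other tumour. The difference was 0.14 (SE 0.42, limma adjusted p = 0.972), and -0.22 without that tumour. Mammalian genomes hold processed copies of the cytochrome c gene, and whether the probe also matches such a copy was not analysed here.

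Complex IV had NDUFA4 as its only member. It read 13.80, 13.35, 13.71 and 13.75 in the deleted tumours and 13.72, 13.45 and 14.11 in the wild-type tumours. Only wild-type tumour 3 stood above the deleted group, and the difference was -0.11 (SE 0.19, limma adjusted p = 0.946). Its sign did not hold without wild-type tumour 3 (0.07) or on the shared slide (0.08). A second NDUFA4 probe, which the files place on chromosome 10 and not 14 and which may lie in a copy of the gene, gave -0.16.

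NDUFA4L2, the paralogue of NDUFA4 known as a gene switched on by low oxygen, had the highest difference and one of the widest spreads. It read 8.20, 9.64, 9.56 and 7.69 in the deleted tumours and 8.85, 7.97 and 6.53 in the wild-type tumours. Deleted tumours 2 and 3 were the highest of the 7 tumours and wild-type tumour 3 was the lowest, while deleted tumour 4 lay below wild-type tumours 1 and 2. The difference was 0.99 (SE 0.70, limma adjusted p = 0.846). It was 0.36 without wild-type tumour 3 and 2.24 when the extraction software's own processed signal was quantile-normalized.

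**Figure D3:**
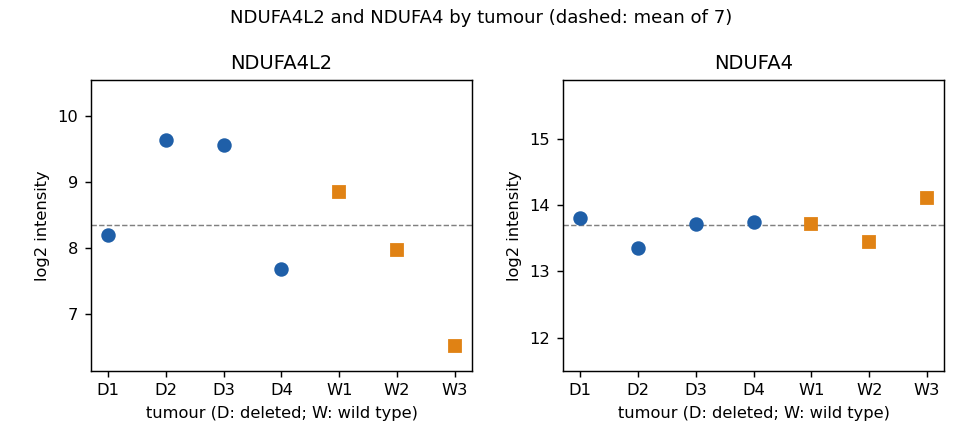
Log2 intensity of NDUFA4L2 (left) and NDUFA4 (right) in each of the 7 tumours (D1 to D4 deleted, circles; W1 to W3 wild type, squares), on vertical axes of equal length centred on the mean of the 7 (dashed). NDUFA4L2 spans 6.53 to 9.64 and NDUFA4 13.35 to 14.11.

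Complex V had 7 member genes, 6 of them with a lower mean in deleted tumours and a median difference of -0.13, and none with separate groups or an unadjusted p below 0.05. ATP5D, the delta subunit of the catalytic F1 part, read 9.74, 10.31, 10.10 and 9.74 in the deleted tumours and 10.19, 10.23 and 10.28 in the wild-type tumours. Deleted tumours 1, 3 and 4 lay below the wild-type tumours and deleted tumour 2 above them, and the difference was -0.26 (SE 0.16, limma adjusted p = 0.806). ATP5B, the catalytic beta subunit, read 13.43, 13.48, 13.46 and 13.66 in the deleted tumours and 13.56, 13.47 and 13.71 in the wild-type tumours. The 7 tumours lay close together and the difference was -0.07 (SE 0.10, limma adjusted p = 0.932).

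ATP5G2 and ATP5G3 code for the same mature c subunit of the rotating ring. ATP5G3 read 13.99, 13.85, 13.65 and 14.54 in the deleted tumours and 14.22, 14.03 and 14.82 in the wild-type tumours. ATP5G2 read 13.94, 13.24, 13.94 and 13.65 in the deleted tumours and 14.15, 13.50 and 14.29 in the wild-type tumours. Wild-type tumour 3 was the highest for both, the groups overlapped for both, and the differences were -0.35 (SE 0.27, limma adjusted p = 0.862) and -0.29 (SE 0.25, limma adjusted p = 0.890). The other 3 genes, ATP5C1, ATP5J and ATP5F1, lay between -0.13 and 0.07.

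The order of the tumours was not the same in each complex. In complex I the deleted tumours held the lowest 4 places of the median deviation. In complex III, with 2 genes, they also held the lowest 4 places, but deleted tumour 1 stood alone at -0.50 and the other tumours lay between -0.08 and 0.20. In complex V the deleted tumours spread from -0.17 to 0.12 and the wild-type tumours from -0.07 to 0.19. Within the slide that held both groups the medians were -0.19 for complex I, 0.31 for II, -0.15 for III, 0.08 for IV and 0.00 for V. In session 1 they were -0.12, 0.14, -0.12, 0.15 and 0.06, and in session 2 -0.35, -0.39, -0.65, -0.11 and -0.28. The medians of complexes I and III were below 0 within each of these batches, and those of complexes II, IV and V were not. For complex III, with 2 genes and separate groups in their median, this sign was fixed in advance for any subset of tumours. The groups were also separate in the complex I median, so its sign within batches adds little. Session 1 holds the tumours of the slide and deleted tumour 4, so these are not separate comparisons. The wild-type side of both is the same single tumour. The deleted side of session 2 is also a single tumour, so none of these values has a test.

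**Figure D4:**
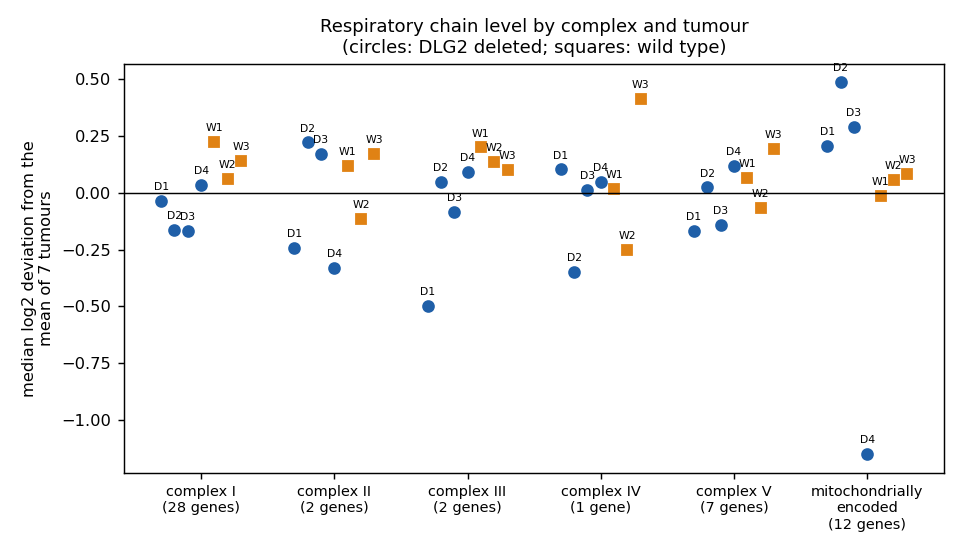
Median over the genes of each complex of the log2 deviation from the gene's mean over the 7 tumours (vertical axis), for each tumour (circles D1 to D4 deleted, squares W1 to W3 wild type), with the 12 mitochondrially encoded genes at the right. The deleted tumours lie below the wild-type tumours for complexes I and III, overlap them for complexes II, IV and V, and D4 lies at -1.15 for the mitochondrially encoded genes.

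Probes of the same gene mostly had the same direction. Of 17 genes with more than 1 kept probe, 15 had differences of 1 sign over all of them. The exceptions were NDUFA12 (-0.15 and 0.11, for the pair printed above) and SDHA. The within-group SD was 0.31 as a median over the 48 genes, against 0.25 over all kept probes, and this difference was not tested. The median GC content of the kept member probes was 45%, as over all kept probes.

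The genes found only through their RefSeq identifiers were even in direction, with 10 of 20 lower and 10 higher in deleted tumours and a median difference of 0.00. The 3 genes at an unadjusted p below 0.05 were all lower (15%, against 7.37% of all genes with a symbol in either direction). As the median deviation over the 20 genes, the deleted tumours stood between -0.17 and -0.04 and the wild-type tumours between -0.01 and 0.08, so the groups did not overlap. Whether these genes differ from the members was not tested. With these genes added, the complex medians were -0.18 for I, -0.01 for II, -0.26 for III, -0.16 for IV and -0.12 for V. Of the added genes, 5 of 6 were lower for complex III (median -0.26), 3 of 5 for complex IV (median -0.21) and 0 of 3 for complex I (median 0.06). UQCRQ, a small subunit of complex III, read 13.84, 13.57, 14.06 and 14.08 in the deleted tumours and 14.46, 14.25 and 14.64 in the wild-type tumours. Only UQCRQ among the 20 had a brightest probe with separate groups (5%, against 7.71% of genes with a symbol in either direction). It was singled out after its values were seen (difference -0.56, SE 0.16, limma adjusted p = 0.552).

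COX7A1, the form of complex IV subunit 7a known from muscle and heart, read 12.50, 11.67, 11.93 and 12.51 in the deleted tumours and 13.32, 13.11 and 12.38 in the wild-type tumours. Wild-type tumour 3 lay below deleted tumours 1 and 4, and the difference was -0.78 (SE 0.30, limma adjusted p = 0.666). COX6A2, the muscle form of subunit 6a, read 9.32, 8.61, 8.47 and 8.47 in the deleted tumours and 9.39, 8.82 and 8.58 in the wild-type tumours, a difference of -0.21 (SE 0.28, limma adjusted p = 0.923). Deleted tumour 1 stood apart from the other deleted tumours. Of the skeletal muscle markers 6 of 10 were higher and 4 lower, with a median of 0.04, and their part in these values was not tested.

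COX4I1, the common form of the regulatory subunit 4, read 14.94, 13.61, 13.92 and 14.23 in the deleted tumours and 13.84, 14.01 and 13.84 in the wild-type tumours. Deleted tumour 1 was the highest, as it was for the neighbouring gene COX4NB (11.13, against 10.02 to 10.88 elsewhere), and the COX4I1 difference was 0.28 (SE 0.30, limma adjusted p = 0.907). COX8A, a small subunit of complex IV, differed by 0.26 (SE 0.19) and COX7A2L, which helps complexes III and IV to associate, by 0.03 (SE 0.26). CYC1, the cytochrome of complex III, differed by 0.09 (SE 0.39), with deleted tumour 2 highest at 13.07 as for CYCS. SDHD, a membrane anchor of complex II, differed by 0.04 (SE 0.22). No probe was found under SDHB, COX4I2, COX6A1, COX6B1, COX6B2, COX7A2 or COX8C by either route.

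The subunits encoded in mitochondrial DNA showed a different pattern, set by 1 tumour. Of 12 such genes, 8 were lower and 4 higher in deleted tumours, with a median difference of -0.06 and none at an unadjusted p below 0.05. Deleted tumour 4 was the lowest of the 7 tumours for 11 of the 12 genes, at a median of -1.34 against the mean of the other tumours. COX1, the catalytic subunit of complex IV, read 15.10, 15.30, 15.81 and 12.86 in the deleted tumours and 15.06, 15.30 and 15.01 in the wild-type tumours. CYTB, the cytochrome b of complex III, read 13.82, 13.97, 13.58 and 11.95 in the deleted tumours and 13.26, 13.46 and 13.52 in the wild-type tumours. Deleted tumour 4 was far below the others in both. The exception was ND6, the only subunit encoded on the light strand, which was lowest in wild-type tumour 3 (8.15).

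Without deleted tumour 4, 11 of the 12 mitochondrially encoded genes had a higher mean in the remaining deleted tumours, and the median difference was 0.30. The nuclear genes of complex I did not follow: deleted tumour 4 stood at 0.03 there, the highest of the deleted group. COX2, COX3 and ATP6, the mitochondrially encoded genes whose probes were brightest, showed a smaller gap in deleted tumour 4 (-0.51, -0.49 and -0.47) than COX1 (-2.40) or ND3 (-2.03). Adipocyte markers, present in quantity in the same tumour, are given with the tissue markers, and their part in this result was not tested.

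**Figure D5:**
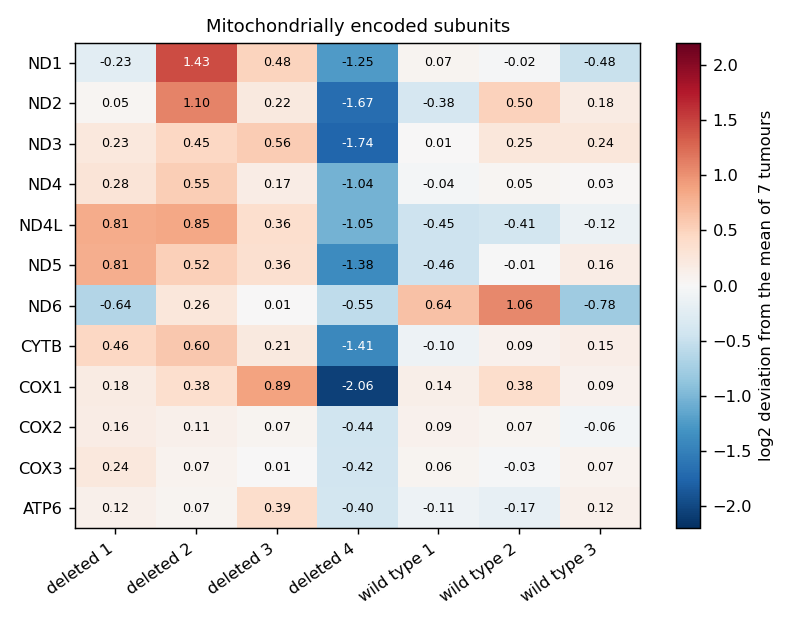
Log2 deviation from the mean of the 7 tumours for 12 mitochondrially encoded subunits (rows) in each tumour (columns); blue is below and red above the mean, and each cell prints its value. The column of deleted tumour 4 is below the mean for all 12 genes, and it holds the lowest value of 11 of them.

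Genes that serve the chain were described from lists beside the members. Of 31 assembly factors outside the set, 16 were higher and 15 lower (median 0.00), 3 at an unadjusted p below 0.05 in each direction. These 6 are 19.4% of the list, against 7.37% of all genes with a symbol. ECSIT, a complex I assembly factor, read 10.07, 10.09, 10.73 and 10.96 in the deleted tumours and 11.48, 11.33 and 11.18 in the wild-type tumours. Its groups were separate for each of its 3 probes, and the difference of the brightest was -0.87 (SE 0.25, limma adjusted p = 0.548). TMEM70, an assembly factor of complexes I and V, was also separate and lower (-0.79, SE 0.24), though its second probe overlapped. TTC19 and UQCC3, assembly factors of complex III, were separate and higher (0.48, SE 0.16, and 0.54, SE 0.16). TMEM126B, a complex I assembly factor on chromosome 21, read 7.82, 8.07, 7.85 and 8.15 in the deleted tumours and 6.81, 7.38 and 7.79 in the wild-type tumours, a difference of 0.65 (SE 0.23). A second TMEM126B probe overlapped, with a difference of 0.15 (SE 0.16). These 5 were chosen after their values were seen, and none passed the test.

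Of 15 genes of the citric acid cycle and pyruvate dehydrogenase, 13 were lower in deleted tumours, with a median of -0.09. Separate groups were found for 3 genes (20%, against 7.71% of all genes with a symbol in either direction). Among them were SUCLA2 (-0.73, SE 0.33), a subunit of succinate-CoA ligase, and DLD (-0.33, SE 0.13), a subunit shared by several dehydrogenase complexes. A second DLD probe overlapped (-0.05, SE 0.10), and so did some other SUCLA2 probes. The median of the list was -0.19 without deleted tumour 4 and -0.36 with normexp and 75th percentile scaling. Of 12 regulators of mitochondrial biogenesis, 6 were lower and 6 higher, with a median of -0.02. TFB1M, which modifies mitochondrial ribosomal RNA, was the only one whose brightest probe had separate groups (-0.48, SE 0.15). That is 8.33% of the list, near the 7.71% of all genes with a symbol. A second TFB1M probe overlapped (-0.41, SE 0.17). TFAM, which packages mitochondrial DNA, differed by -0.17 (SE 0.16), and PPARGC1A, a coactivator of biogenesis, by -0.34 (SE 0.25). Of 13 genes known to respond to low oxygen, 9 were higher in deleted tumours, with a median of 0.35. The median was 0.16 without deleted tumour 2 and 0.23 without wild-type tumour 3. With normexp and 75th percentile scaling it was 0.12, below the median of all kept probes, which that scaling moved to 0.32. ANKRD37 (1.05, SE 0.21), ADM (0.91, SE 0.27) and the glycolytic enzyme HK2 (0.58, SE 0.15) had separate groups (23.1% of the list, against the same 7.71%). A second HK2 probe overlapped, with a difference of 0.21 (SE 0.18). LDHA, which makes lactate, differed by 0.48 (SE 0.36). The genes with separate groups were named for that, after their values were seen, and none of these lists held a gene that passed the test.

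Markers of the tissues that such a piece of bone tumour could hold were compared in the same way. All 6 measured osteoblast markers were lower in deleted tumours (median -0.55; log2 of the summed level 17.2 to 18.5 in deleted and 18.1 to 18.4 in wild-type tumours), and COL1A1 and COL1A2 were well above background in every tumour. COL1A1 was lower by its brightest probe (-0.12, SE 0.47) and higher by its other probes (0.08, 0.18 and 0.16). In the median deviation of the osteoblast markers, deleted tumours 1 and 4 (0.19 and 0.38) stood above wild-type tumour 2 (-0.04). All 6 osteoclast markers had a lower mean (median -1.45), though CALCR was level between the groups (-0.000159, SE 0.14). Their summed level was 13.4 to 16.1 in deleted and 14.98 to 17.8 in wild-type tumours. Wild-type tumour 3 was highest, at a median deviation of 2.28. Without that tumour the osteoclast median was -0.50, and with array weights it was -0.67. With slide as a block, so on the shared slide alone, it was 0.55. All 6 cartilage markers were higher (median 0.97; 11.4 to 15.6 and 11.3 to 13.1), with deleted tumours 2 and 3 at 1.92 and 1.21, and the median was 0.57 without deleted tumour 2 and 0.63 without wild-type tumour 3. The 5 adipocyte markers were higher (median 0.82; 9.69 to 13.9 and 9.72 to 9.85), with deleted tumour 4 at 3.12. Without that tumour the adipocyte median was 0.0733. Endothelial markers were higher in 5 of 5 (median 0.50; 12.8 to 14.3 and 12.3 to 13.0) and leukocyte markers in 4 of 7 (median 0.10; 11.8 to 13.4 and 12.3 to 13.1). The endothelial median was 0.16 without deleted tumour 3 and -0.0694 with age as a covariate, and the leukocyte median was -0.0566 without deleted tumour 3. Separate groups, higher in deleted tumours, were found for 2 leukocyte markers (28.6% of the list) and 1 adipocyte marker (20%). Of all genes with a symbol 7.71% were separate in either direction. Skeletal muscle markers summed to 13.7 to 14.7 in deleted and 13.9 to 14.1 in wild-type tumours. No erythroid marker passed the filter on dim probes. The part of these tissues in the lower complex I values was not tested. With a tumour left out, the complex I median was -0.22 without wild-type tumour 3, -0.27 without deleted tumour 4 and -0.11 without wild-type tumour 1.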

How the data were processed

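Each of the 7 tumours was measured by the authors on 1 Agilent Canine V2 array with a single dye (Cy3). The deposited files are the output of Agilent Feature Extraction 10.7.3.1, with linear mean, background and processed intensity values per spot. The study's methods name RMA and an adjustment for a batch that they do not specify; neither was taken over.

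From the deposited values, the mean intensity was background-corrected by normexp (offset 50) with limma 3.58.1 in R 4.3.3, quantile-normalized and put on the log2 scale. Control spots and 144 outlier values were left out, replicate spots were averaged, and 32309 of 43603 probes well above background on at least 3 arrays were kept. Deleted and wild-type tumours were compared by limma's moderated test over all kept probes (two-sided, no covariates, Benjamini-Hochberg). An exact permutation test, with 35 splits, was added for single genes. The number of arrays limits the precision. The fit was tested on simulated data.

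A gene was represented by its kept probe with the highest mean. Named were the 4 genes with the smallest unadjusted p in each complex and a list of isoform, carrier and complex II genes; others are marked where named. The members, lists and tissue markers were chosen with earlier results of these data known. Alternatives were other background corrections and scalings, filters, tests and covariates, and each tumour left out. A few genes that enter the counts are not reported by name here. Adding probes named through RefSeq was chosen after seeing the data.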

Additional observations from a re-analysis of the deposited data

Results flagged for a closer look

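Among 40 groups of 4 deleted tumours examined, 3 held a tumour far from the others, where chance alone gives about 2. The gap to the nearest tumour was 0.913 of the group's range for deleted tumour 4 in the median deviation of the adipocyte markers, where ADIPOQ read 13.37 there and 6.92 to 7.85 in the other tumours. It was 0.877 for deleted tumour 2 in SDHA (11.15, against 10.24 to 10.35 in the other deleted tumours) and 0.839 for deleted tumour 1 in COX6A2 (9.32, against 8.47 to 8.61). The effect of DLG2 status did not pass a test of difference between the sex labels for any of the 72 member probes (limma interaction, smallest adjusted p = 0.347). At an unadjusted p below 0.05 there were 9 member probes (12.5%, against 7.94% of all kept probes), and the wild-type side of that interaction rests on a single MC tumour.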

How the results depend on the processing

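No member probe was called in any of the 22 alternatives that gave a count. At an unadjusted p below 0.05 there were 7 member probes. The count was 3 with the processed signal scaled to the 75th percentile, 4 with it quantile-normalized and 11 with array weights. Over all kept probes the shares were 7.08%, 6.97% and 12.3% in the same order. With a tumour left out the member count ran from 5 to 13 (13 without deleted tumour 3). The share over all kept probes then ran from 4.41% to 9.25% (6.93% without deleted tumour 3). Probes with separate groups numbered 7, and 8 to 17 with a tumour left out, where fewer tumours make separation easier. They numbered 17 without deleted tumour 3, 13 without deleted tumour 4 and 12 without wild-type tumour 2. Over all kept probes the shares with separate groups were then 12.6%, 15.4% and 13.7%. Whichever tumour was left out, that share lay between 12.2% and 19.0%. The median of complex I stayed below 0, at -0.54 with normexp and 75th percentile scaling and from -0.27 to -0.11 with a tumour left out (-0.11 without wild-type tumour 1). With that scaling complex II was -0.40, complex IV -0.45 and complex V -0.43. The same scaling moved the median of all kept probes to 0.32. Relative to that median, complex I stood at -0.86, II at -0.71, III at -0.69, IV at -0.76 and V at -0.75. With slide as a block, which leaves only the tumours of the shared slide, complex II was 0.31. With wild-type tumours 1 and 2 averaged complex V was -0.27. NDUFA9, NDUFB8, NDUFA8 and NDUFA6 were lower in deleted tumours in all 19 alternatives run for them. With a tumour left out, other filters, array weights or wild-type tumours 1 and 2 averaged, this sign was fixed, since their groups were separate. It was also fixed with slide, session or the sex label in the fit. Only the other background corrections and scalings and age as a covariate could have turned it.

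ATP5B (-0.07) kept its sign in all 19 alternatives. For other named genes, ATP5G2 (-0.29) and COX8A (0.26) among them, the sign turned in some. With normexp and 75th percentile scaling it did for COX7A2L (-0.13), CYCS (-0.18), COX4I1 (-0.0758), COX8A (-0.0563), CYC1 (-0.23) and SDHD (-0.20). With slide as a block it did for COX7A2L (-0.0403), COX4I1 (-0.24), SDHD (-0.0927), SDHA (0.26), NDUFA4 (0.0821), SDHC (0.37) and ATP5G2 (0.0864). With session as a term it did for CYC1 (-0.0811), SDHD (-0.0375) and NDUFA4 (0.0287), with array weights for SDHD (-0.0393), SDHA (0.0327) and NDUFA4 (0.0033), and with the sex label for SDHA (0.0226). With age it did for COX7A2L (-0.21), COX8A (-0.027), SDHD (-0.0147), SDHA (0.14) and COX6A2 (0.22). COX7A2L also turned with the processed signal (-0.0146 and -0.0268) and with wild-type tumours 1 and 2 averaged (-0.023). With a tumour left out, COX7A2L ran from -0.15 to 0.22, CYCS from -0.22 to 0.35, CYC1 from -0.26 to 0.31, SDHD from -0.11 to 0.17, SDHA from -0.22 to 0.0821, NDUFA4 from -0.26 to 0.0703 and COX6A2 from -0.42 to 0.0158. The cause was not tested. No paired analysis was possible because the labels give the tumours no shared replicate numbers. With 7 arrays, only differences that are large beside the spread between tumours can pass the test.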
